A study of Mus musculus with 27 samples.

Results

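The TNF superfamily was examined in mouse KUSA4b10 cells as all genes named Tnfsf or Tnfrsf plus a number, together with Tnf itself, leaving out Tnfsf11 (RANKL) and Tnfrsf11b (osteoprotegerin). The rule used gene names only and no measured value, and it found 26 of 18193 genes on the array. By function they were 7 ligands, 18 receptors and Tnfsf13os, a transcript named for the strand opposite Tnfsf13, which matched by name and is not itself a ligand; the strand its probes read was not checked here. Where a gene had several probe sets, the brightest on average across the 27 arrays stood for it. A total of 25 members reached a log2 intensity of 5 on at least 3 arrays and were tested. The exception was Tnfrsf13b, the B cell receptor TACI, whose highest reading was 4.97. Tnfsf13b (BAFF) reached 5 on 20 arrays and the other tested members on all 27. Another 3 probe sets carried a family symbol beside a second symbol and were not used.

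KUSA4b10 is a mouse stromal cell line from bone marrow, able to mature towards osteoblasts. Total RNA was measured on 27 Affymetrix arrays, 3 for each of 9 groups. Cells were left untreated, received PTH(1-34), a parathyroid hormone fragment, at 10 nM, or received PTHrP(1-141), a parathyroid hormone-related protein, at 20 nM, and RNA was taken after 1, 6 or 24 h. Both peptides act through the receptor encoded by Pth1r. Ligand, peptide length and dose therefore cannot be told apart in any comparison of PTHrP with PTH. All groups share 1 cell line. Nothing in the labels states that replicates came from different cultures, so the p-values reflect the spread among these arrays alone, and that spread may be technical.

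Ligands of the TNF superfamily are mostly trimers held at the cell surface or shed from it, and they signal by clustering receptors that recruit TRAF adaptors or, where the receptor has a death domain, the proteins that start apoptosis. The best known member in bone is RANKL, by which stromal cells and osteoblasts drive osteoclast formation and which PTH is known to raise. The remaining family members include the TNF receptors, the death receptors, decoys without signalling domains, and co-stimulatory receptors known mainly from lymphocytes.

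The arrays were close to each other in scale, with medians of 83.2 to 91.1 intensity units. Within groups arrays correlated at 0.992 or more across genes, except for PTHrP at 1 h, whose replicate 3 lay apart from the others with a lowest correlation of 0.983. Stromal and osteoblast markers were high: 8 of the 10 listed were on the array, and all 8 had group means of at least 7. Ptprc, the pan-leukocyte gene CD45, read 3.89 to 4.38 on all arrays. Of the 5 adipocyte markers on the array, 3 had group means of at least 7. These were Adipoq, at 9.92 to 12.09, Fabp4, at 9.15 to 11.47, and Pparg, at 8.52 to 9.12. Cidec read 4.28 to 6.08 and Lep 4.24 to 4.69. List means per array ran over 5.83 to 6.15 for macrophage and osteoclast markers, of which 3 of 10 had group means of at least 7, 6.06 to 6.56 for lymphocyte, 5.08 to 5.48 for endothelial and 6.33 to 6.84 for muscle markers. The bright macrophage and osteoclast markers were Ctsk, at 9.92 to 11.06, Csf1r, at 7.58 to 8.21, and Cd14, at 7.01 to 8.06. Depending on the group, 2 or 3 of 6 lymphocyte, 2 or 3 of 5 muscle and 0 or 1 of 6 endothelial markers had means of at least 7. Although Ptprc was that low, probe sets for the T cell genes Cd3e and Cd4 read 6.88 to 7.67 and 7.32 to 7.92. The other lymphocyte markers on the array were Cd8a, at 6.74 to 7.37, Cd79a, at 6.09 to 6.53, Ms4a1, at 4.58 to 5.63, and Cd3g, at 3.99 to 4.72. A reading in the range of Cd3e and Cd4 alone therefore does not show that a transcript is present. In these bulk samples fewer cells of a type and less RNA per cell cannot be told apart.

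After 6 h, 6 of the 25 tested members were higher with PTH and 6 were higher with PTHrP, and 0 were lower with either peptide. All of them were receptors, which made up 17 of the 25 tested members. The receptors that rose with both peptides were Tnfrsf9 (4-1BB), Tnfrsf21 (death receptor 6), Tnfrsf1a (TNF receptor 1), Tnfrsf23 and Tnfrsf22, while Tnfrsf10b passed with PTH and Tnfrsf25 with PTHrP. Calls were made at an adjusted p under 0.05 with limma, over 15711 genes. The background was wide: 29.3% of all tested genes were called with PTH at 6 h and 20.9% with PTHrP. Genes called higher made up 11.4% and 8.7% of all tested genes. The share of members called, 24% with each peptide, was near the share of all genes called in either direction and above the share called higher, with no test of this difference. The median log2 difference of the members was 0.04 with PTH and 0.14 with PTHrP, beside -0.00338 and 0.03 over all tested genes.

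**Figure D1:**
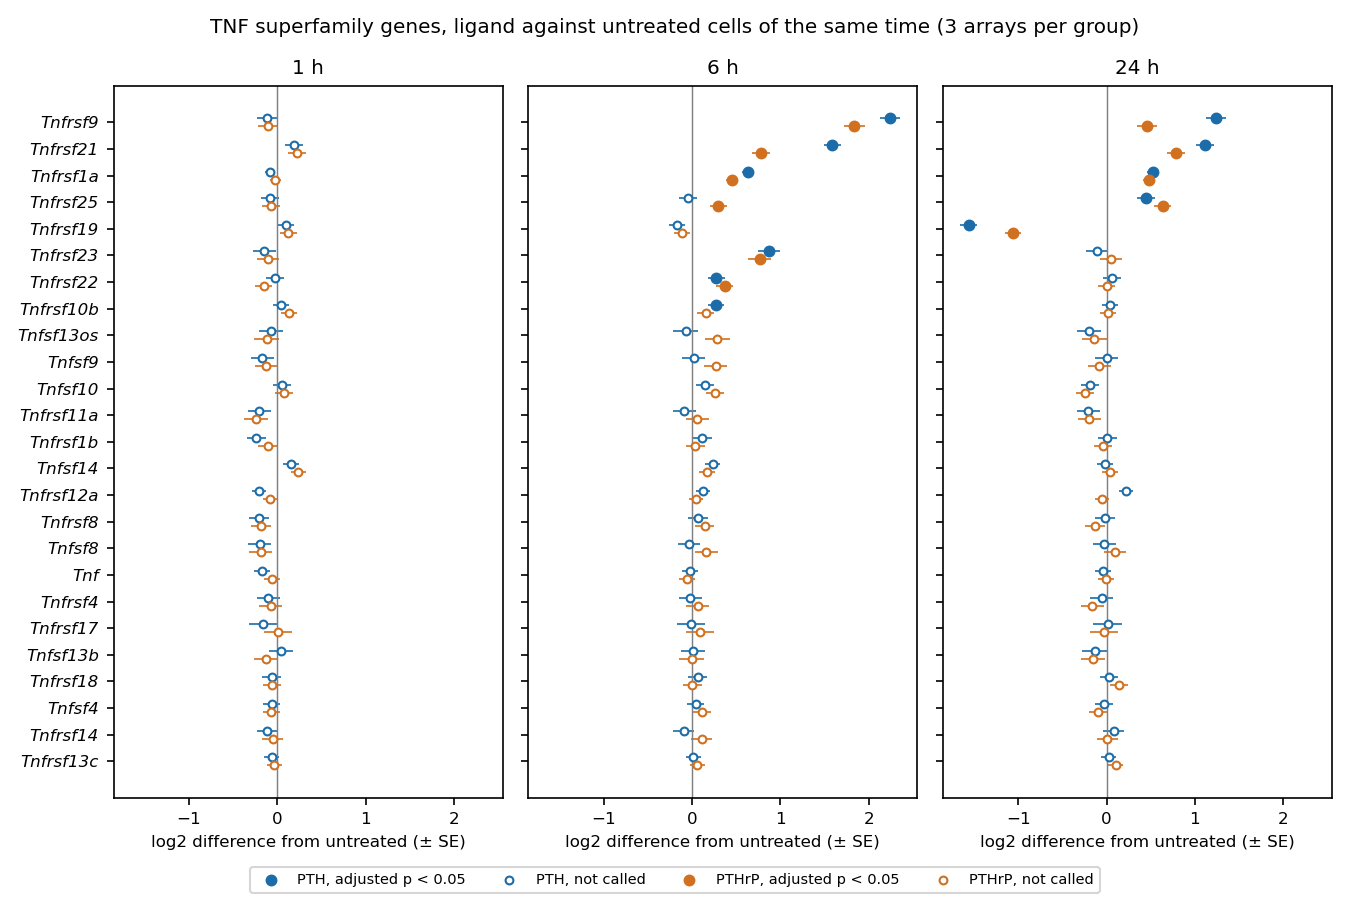
Log2 difference from untreated cells of the same time (x axis, with standard error) for the 25 tested genes (y axis) at 1, 6 and 24 h, with PTH in blue and PTHrP in orange; filled points passed an adjusted p of 0.05. No filled point appears at 1 h, Tnfrsf9 reaches 2.24 at 6 h, and Tnfrsf19 is the only gene with filled points below 0, at 24 h.

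Promoter sequence is shown for the receptors with the largest rises, so that their start regions can be read beside the values. RefSeq promoter windows on build GRCm38.p6 were matched for 21 of the 26 members. The 250 bases upstream of each start were searched on both strands for the cyclic AMP response element TGACGTCA, its short form TGACG, which lies within it, the AP-1 site TGANTCA, and the NF-kappa B consensus. Tnfrsf9 has 2 listed starts on the plus strand, at chr4:150919905-150920154 (window 1) and chr4:150927749-150927998 (window 2), and Tnfrsf21 has 1, at chr17:43016305-43016554 on the plus strand. Capitals mark the motif matches.
Tnfrsf9 window 1: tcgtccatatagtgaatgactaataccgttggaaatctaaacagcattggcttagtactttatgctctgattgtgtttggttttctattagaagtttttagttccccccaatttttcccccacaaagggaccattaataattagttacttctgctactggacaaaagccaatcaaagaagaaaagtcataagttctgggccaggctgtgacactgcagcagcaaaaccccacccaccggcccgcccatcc
Tnfrsf9 window 2: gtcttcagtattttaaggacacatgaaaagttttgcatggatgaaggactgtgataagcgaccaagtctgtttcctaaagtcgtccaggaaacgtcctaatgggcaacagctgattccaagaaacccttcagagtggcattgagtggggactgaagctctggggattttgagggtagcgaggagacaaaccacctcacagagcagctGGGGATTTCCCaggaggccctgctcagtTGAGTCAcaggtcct
Tnfrsf21: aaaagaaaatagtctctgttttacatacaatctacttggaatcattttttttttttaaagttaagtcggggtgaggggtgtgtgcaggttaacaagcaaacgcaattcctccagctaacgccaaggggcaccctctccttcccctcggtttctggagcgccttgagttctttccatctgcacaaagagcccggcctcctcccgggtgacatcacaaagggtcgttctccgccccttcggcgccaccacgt

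Window 2 of Tnfrsf9 held overlapping NF-kappa B matches from base -43 to -33 and an AP-1 match from -15 to -9, counted from the start. Window 1 of Tnfrsf9 and the windows of Tnfrsf21 and Tnfrsf1a held none of the 4 motifs. By gene, an NF-kappa B match occurred in 3 of the 21 members, Tnfrsf8, Tnfrsf9 and Tnfrsf25, and in 8.23% of 27025 genes. An AP-1 match occurred in 4 members, Tnfrsf8, Tnfrsf9, Tnfsf13b and Tnfsf14, and in 7.82% of genes. The short form TGACG occurred in 4 members, Tnfrsf11a, Tnfrsf23, Tnfrsf25 and Tnfsf10, and in 19.8% of genes. The full cyclic AMP element occurred in 0 members and 1.77% of genes. Of the genes named here, Tnfrsf8, Tnfrsf11a, Tnfsf10, Tnfsf13b and Tnfsf14 were called in no comparison with untreated cells. A match describes letters in the window and not a bound site.

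At 1 h no member passed the test with either peptide. The background shares of called genes at this time were 1.74% with PTH (1.44% higher and 0.299% lower) and 1.81% with PTHrP (1.57% higher and 0.248% lower). By limma without adjustment, 2 members had a p under 0.05 in each comparison. With PTH these were Tnfrsf12a, at -0.21, and Tnfrsf1b (TNF receptor 2), at -0.24, and with PTHrP they were Tnfrsf21, at 0.22, and the ligand gene Tnfsf14 (LIGHT), at 0.24. The share of all genes under this unadjusted p was not computed, so these counts are no result about the family. The lowest adjusted p was 0.325 with PTH and 0.3 with PTHrP among the members that passed in no comparison with untreated cells. The PTHrP count at 1 h rested on replicate 3. Without that array Tnfrsf11a (RANK, the receptor of RANKL) was lower by -0.43 (limma adjusted p = 0.0316) and Tnfrsf8 (CD30) by -0.35 (adjusted p = 0.0317), with 5.93% of all genes then called. Tnfrsf11a read 6.64 and 6.63 on the first 2 PTHrP arrays and 7.20 on the third, against 7.01, 7.16 and 7.03 in untreated cells.

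The largest rise in the family was that of Tnfrsf9, a co-stimulatory receptor best known on activated T cells. At 6 h its log2 intensity was 7.02, 7.08 and 7.33 on the untreated arrays, 9.39, 9.28 and 9.47 with PTH, and 9.17, 8.79 and 8.99 with PTHrP. All treated arrays lay above all untreated ones, and the PTH arrays lay above the PTHrP arrays. The log2 difference was 2.24 ± 0.11 (SE, n = 3 arrays per group; 4.72-fold; limma adjusted p = 1.27e-13) with PTH and 1.84 ± 0.11 (3.58-fold; adjusted p = 1.19e-11) with PTHrP. By 24 h the untreated arrays read 7.20, 7.22 and 7.06, the PTH arrays 8.38, 8.29 and 8.52, and the PTHrP arrays 7.62, 7.74 and 7.48. The groups again did not overlap. Tnfrsf9 was still higher by 1.24 ± 0.11 with PTH (limma adjusted p = 2.38e-08) and by 0.46 ± 0.11 with PTHrP (adjusted p = 0.013). The PTHrP call at 24 h was lost without untreated replicate 3 (limma adjusted p = 0.0827) and without PTHrP replicate 2 (adjusted p = 0.0885). Untreated cells held Tnfrsf9 level over time, with differences from 1 h of -0.02 at 6 h and -0.00499 at 24 h.

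Tnfrsf21, which encodes the death domain receptor DR6, followed with the next largest rise. Its 6 h values were 9.29, 9.26 and 9.30 untreated, 10.74, 11.02 and 10.87 with PTH, and 10.15, 10.03 and 10.02 with PTHrP. The 3 groups did not overlap. The log2 difference was 1.59 ± 0.10 with PTH (3.01-fold; limma adjusted p = 7e-12) and 0.78 ± 0.10 with PTHrP (1.72-fold; adjusted p = 2.58e-06). At 24 h the arrays read 8.89, 8.97 and 8.94 untreated, 10.13, 9.96 and 10.04 with PTH, and 9.66, 9.60 and 9.90 with PTHrP. Every treated array stayed above the untreated ones. The differences were 1.11 ± 0.10 (limma adjusted p = 2.11e-08) and 0.79 ± 0.10 (adjusted p = 7.42e-06). Untreated cells themselves fell by 0.34 between 1 and 24 h (adjusted p = 0.0146). That fall was lost without untreated 1 h replicate 2 (limma adjusted p = 0.109) and without untreated 24 h replicate 1 (adjusted p = 0.0548), and with all probe sets averaged (-0.22, adjusted p = 0.114).

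Tnfrsf1a, the widely expressed TNF receptor with a death domain, rose less but with little spread. At 6 h it read 10.79, 10.82 and 10.75 untreated, 11.38, 11.42 and 11.44 with PTH, and 11.25, 11.19 and 11.25 with PTHrP. The groups did not overlap, and PTH was again the highest. The difference was 0.63 ± 0.06 with PTH (limma adjusted p = 1.21e-08) and 0.45 ± 0.06 with PTHrP (adjusted p = 5.02e-06). At 24 h the values were 10.95, 10.87 and 10.78 untreated, 11.40, 11.36 and 11.41 with PTH, and 11.33, 11.33 and 11.38 with PTHrP. The PTH and PTHrP arrays now overlapped, and both lay above the untreated arrays. The differences were 0.52 ± 0.06 (limma adjusted p = 1.02e-06) and 0.48 ± 0.06 (adjusted p = 6.3e-06). Its partner Tnfrsf1b passed in none of these comparisons, and the shared ligand Tnf stayed between 6.60 and 7.0 on all 27 arrays.

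Receptors of the TRAIL group were called at 6 h and not at 1 or 24 h. Tnfrsf23 and Tnfrsf22 encode mouse decoy receptors for TRAIL that lack a death domain. Tnfrsf23 read 5.81, 6.17 and 5.83 untreated, 6.74, 7.03 and 6.66 with PTH, and 6.75, 6.63 and 6.72 with PTHrP. Treated and untreated arrays did not overlap, while the peptides did. The differences were 0.88 ± 0.13 (limma adjusted p = 5.9e-06) and 0.77 ± 0.13 (adjusted p = 6.23e-05). At 24 h they were -0.11 and 0.05, and both treated groups overlapped the untreated arrays. Tnfrsf22 read 7.17, 7.13 and 7.16 untreated, 7.58, 7.48 and 7.24 with PTH, and 7.44, 7.59 and 7.55 with PTHrP. Its smaller differences were 0.28 ± 0.10 (limma adjusted p = 0.0371) and 0.37 ± 0.10 (adjusted p = 0.00777). The PTH call on Tnfrsf22 was lost when any 1 of 5 arrays was left out, with limma adjusted p-values of 0.0738, 0.0962 and 0.0746 without untreated replicates 1, 2 and 3, and 0.193 and 0.107 without PTH replicates 1 and 2. These neighbouring genes are close copies and 1 further probe set was annotated to both, so their readings may share signal.

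Tnfrsf10b, the mouse death receptor for TRAIL, read 6.10, 6.10 and 6.14 untreated and 6.27, 6.35 and 6.52 with PTH at 6 h. The arrays did not overlap, but the difference was small, 0.27 ± 0.09 (limma adjusted p = 0.0274). It was lost without untreated replicate 1, 2 or 3 (limma adjusted p = 0.0737, 0.0689 and 0.051) and without PTH replicate 3 (adjusted p = 0.157). With PTHrP the difference was 0.15 (95% interval -0.03 to 0.34, adjusted p = 0.264). The ligand gene Tnfsf10 (TRAIL) did not pass at 6 h, with 0.15 for PTH and 0.26 for PTHrP (limma adjusted p = 0.0761).

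**Figure D2:**
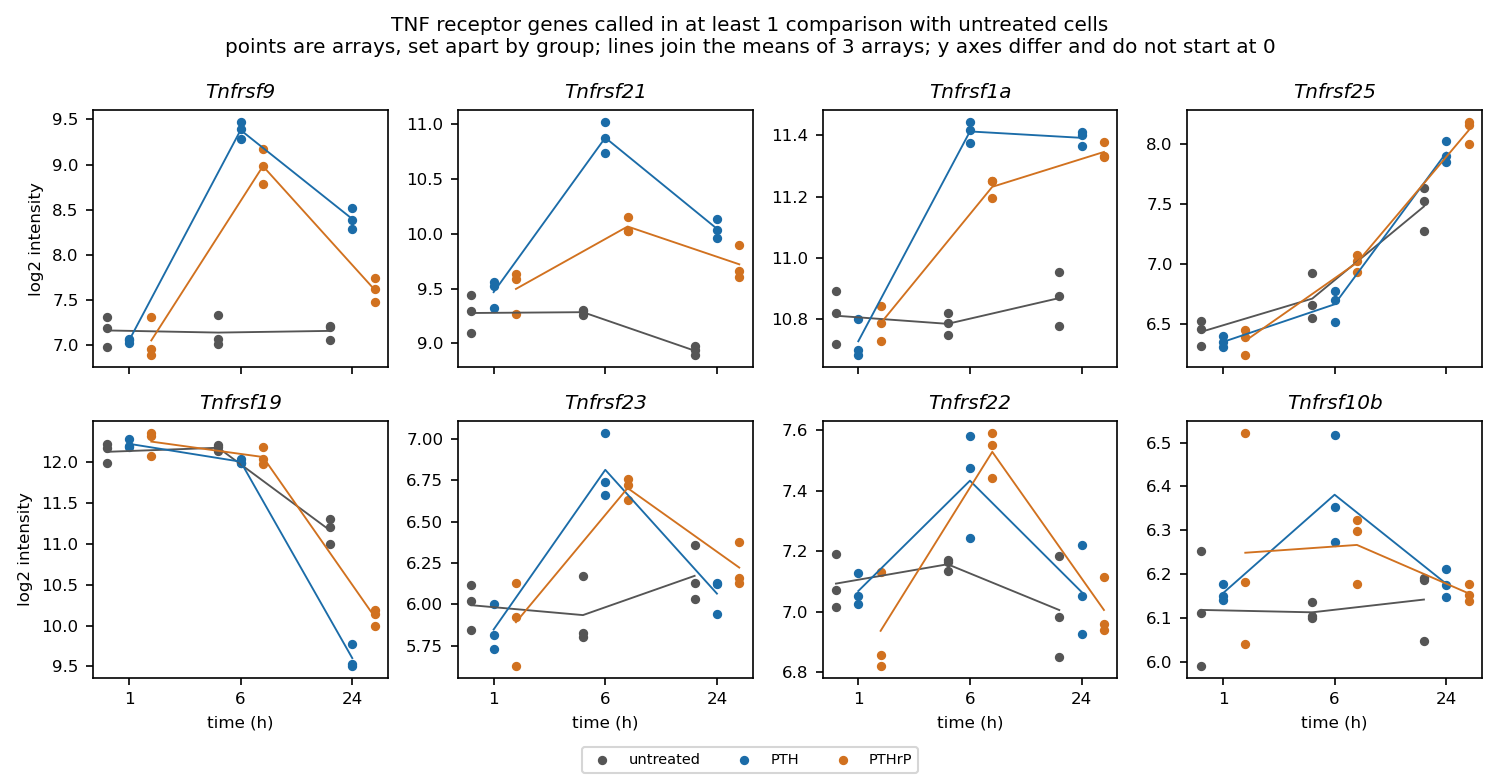
Log2 intensity (y axis) at 1, 6 and 24 h (x axis) for the 8 receptor genes called in at least 1 comparison with untreated cells; each point is 1 array, in grey for untreated, blue for PTH and orange for PTHrP, and lines join the means of 3 arrays. The mean levels of Tnfrsf9, Tnfrsf21, Tnfrsf23 and Tnfrsf22 peak at 6 h with both peptides, while Tnfrsf25 climbs and Tnfrsf19 drops by 24 h also in untreated cells. For Tnfrsf21 with PTHrP the difference from untreated cells was 0.78 at 6 h and 0.79 at 24 h.

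After 24 h, 4 members were higher and 1 was lower with PTH, where 11.6% of all tested genes were called (5.69% higher and 5.96% lower). With PTHrP 4 were higher and 1 was lower, where 6.1% of genes were called (3.09% higher and 3.02% lower). The 2 peptides were compared with the same untreated arrays, so these counts are not independent. With both peptides Tnfrsf9, Tnfrsf21 and Tnfrsf1a were higher, as given above, as was Tnfrsf25, and Tnfrsf19 was lower. The median log2 difference of the members was 0.00063 with PTH and -0.00773 with PTHrP, beside -0.00084 and -0.00883 over all tested genes.

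Tnfrsf19, also called TROY, is an orphan receptor with known expression in progenitor cells of skin, nerve and bone marrow stroma. In untreated cells at 6 h it read 12.18, 12.13 and 12.21. At 24 h the arrays read 10.99, 11.20 and 11.30 untreated, 9.77, 9.50 and 9.53 with PTH, and 9.99, 10.19 and 10.14 with PTHrP. The 3 groups were separate, with PTH the lowest. The difference was -1.56 ± 0.09 with PTH (2.95-fold lower; limma adjusted p = 9.94e-12) and -1.06 ± 0.09 with PTHrP (2.08-fold lower; adjusted p = 1.93e-08). Untreated cells themselves fell by 0.96 from 1 to 24 h (limma adjusted p = 2.26e-08). At 6 h the differences had been -0.17 (95% interval -0.36 to 0.02) and -0.11 (-0.30 to 0.08).

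Tnfrsf25, the death receptor DR3 for the cytokine TL1A, moved the other way. Untreated cells rose by 1.05 ± 0.10 between 1 and 24 h (2.06-fold; limma adjusted p = 2.02e-08). At 24 h they read 7.27, 7.52 and 7.63, against 7.85, 7.90 and 8.02 with PTH and 8.16, 8.18 and 7.99 with PTHrP. The treated arrays overlapped with each other and lay above the untreated ones. The differences were 0.45 ± 0.10 (limma adjusted p = 0.00299) and 0.63 ± 0.10 (adjusted p = 1e-04). At 6 h the arrays read 6.66, 6.55 and 6.92 untreated, 6.77, 6.51 and 6.70 with PTH, and 6.93, 7.07 and 7.02 with PTHrP. PTHrP lay just above the highest untreated array and the PTH arrays overlapped the untreated ones, with differences of 0.30 ± 0.10 (limma adjusted p = 0.033) and -0.05 ± 0.10 (adjusted p = 0.809). The PTHrP call at 6 h was lost without untreated replicate 1 or 2 (limma adjusted p = 0.116 and 0.191) and without PTHrP replicate 2 or 3 (adjusted p = 0.116 and 0.082).

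Other measures moved with the groups, and their part in the receptor values was not tested. The mean of the stromal and osteoblast markers was 12.91 to 12.95 per array untreated, 12.36 to 12.43 with PTH and 12.59 to 12.70 with PTHrP at 6 h, and 12.51 to 12.55, 11.43 to 11.71 and 11.90 to 12.17 at 24 h. The mean of the 5 adipocyte markers on the array was 7.90 to 8.27 per array in untreated cells at 24 h, 7.28 to 7.73 with PTH and 7.34 to 8.11 with PTHrP. Among these, Adipoq read 10.90 to 11.62, 10.06 to 10.79 and 9.92 to 11.02, and Fabp4 read 10.37 to 10.93, 9.27 to 10.12 and 9.15 to 11.17. For both genes the PTHrP range overlapped the untreated range, and for Fabp4 it spanned that range. Pparg, Cidec and Lep are not given by group here. The log2 signal of the Actb 3 prime over the 5 prime control probes, a sign of RNA quality, averaged 0.376 untreated, 0.422 with PTH and 0.44 with PTHrP at 24 h, and 0.254, 0.337 and 0.303 at 6 h.

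PTHrP(1-141) at 20 nM was then set against PTH(1-34) at 10 nM. At 1 h, 0 members and 0% of all genes were called, and by limma 0 members had an unadjusted p under 0.05. At 6 h 3 members differed, where 7.62% of all genes did (4.45% higher and 3.17% lower with PTHrP). Tnfrsf21 was lower with PTHrP by -0.81 ± 0.10 (limma adjusted p = 2.12e-05) and Tnfrsf9 by -0.40 ± 0.11 (adjusted p = 0.0314), and Tnfrsf25 was higher by 0.35 ± 0.10 (adjusted p = 0.0325). Without PTH replicate 3, 1 of these calls was left, that of Tnfrsf21. Tnfrsf9 was also lost without PTH replicate 1 and PTHrP replicate 2 or 3, with limma adjusted p-values of 0.0734 to 0.159 over these and PTH replicate 3. Tnfrsf25 was lost without PTH replicate 2 or 3 and PTHrP replicate 2 or 3, with adjusted p-values of 0.0693 to 0.179. Tnfrsf1a differed by -0.18 (95% interval -0.31 to -0.06), which missed the threshold at an adjusted p of 0.0714 but passed under 4 alternatives (0.00867 to 0.0484: array weights, moderation with trend, an added pseudocount, probe sets averaged), and Tnfrsf23 by -0.11 (-0.37 to 0.15).

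At 24 h 2 members differed between the peptides, with 1.16% of all genes called (0.84% higher and 0.318% lower). Tnfrsf9 was lower with PTHrP by -0.78 ± 0.11 (limma adjusted p = 0.000274), and Tnfrsf19 was higher by 0.51 ± 0.09 (adjusted p = 0.00362). For both genes the PTHrP arrays lay between the untreated and the PTH arrays. Tnfrsf21 differed by -0.32 (95% interval -0.53 to -0.11), with no overlap between arrays but an adjusted p of 0.165. Tnfrsf1a differed by -0.05 (-0.17 to 0.08) and Tnfrsf25 by 0.19 (-0.02 to 0.39). The intervals of Tnfrsf1a and Tnfrsf25 include 0, which does not show that the peptides act alike on them.

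In untreated cells, 1 member was lower at 6 h than at 1 h, with 2.27% of all genes called (1.55% lower). This was Tnfrsf12a (Fn14), the small receptor for TWEAK, which read 11.002, 10.70 and 10.92 at 1 h, 10.33, 10.29 and 10.16 at 6 h, and 11.01, 10.96 and 11.01 at 24 h. The 6 h arrays were the lowest, and by 24 h the level lay among the highest of the 1 h arrays. The difference at 6 h was -0.61 ± 0.08 (limma adjusted p = 3.45e-05). With PTH at 24 h Tnfrsf12a read 11.24, 11.29 and 11.12, above all untreated arrays, but its difference of 0.22 missed the threshold (adjusted p = 0.0711). It passed with probe sets averaged (0.039), with trend and robust moderation (0.0458), with an added pseudocount (0.0499), and without untreated 1 h replicate 2 (0.0478) or PTH 24 h replicate 3 (0.0498). From 1 to 24 h 3 members changed, Tnfrsf25, Tnfrsf19 and Tnfrsf21 as given above, where 23.1% of all genes were called.

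The effect of each peptide was also compared between times. For PTH 5 members rose in effect from 1 to 6 h, where 18.5% of all genes changed (6.49% higher), and 1 rose and 4 fell from 6 to 24 h, where 20.4% changed (12.6% higher and 7.82% lower). For PTHrP 5 rose from 1 to 6 h, where 12.2% changed (3.74% higher and 8.45% lower), and 4 fell from 6 to 24 h, where 12.1% changed (5.03% lower). The PTHrP count from 1 to 6 h depended on replicate 3 at 1 h, being 9 without it, where 26% of all genes changed. With array weights it was 11, where 39.6% changed. Those weights lowered this array to 0.127 but also raised PTHrP 6 h replicate 3 to 7.21. Tnfrsf9 and Tnfrsf23 changed at both steps with both peptides, rising to 6 h and falling after it, and Tnfrsf19 fell in effect from 6 to 24 h with both.

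The 7 ligand genes were called in 0 of the 6 comparisons with untreated cells, as were 61.2% of all tested genes. Their mean log2 values ran from 5.08 to 6.76, where a reading alone does not show that a transcript is present. By limma without adjustment, 1 ligand at 1 h with PTHrP, 1 and 2 at 6 h with PTH and PTHrP, and 1 at 24 h with PTHrP had a p under 0.05. Shares of all genes under this unadjusted p were not computed, so these counts are no result about the ligands. Tnfsf14 with PTH at 6 h came nearest, at 0.23 ± 0.09 (limma adjusted p = 0.0514), and it passed under several alternatives, at an adjusted p of 0.034 with quantile normalization and 0.00497 with array weights. Tnfsf9, the ligand of the receptor encoded by Tnfrsf9, read 6.00, 5.91 and 5.92 untreated, 6.14, 5.94 and 5.80 with PTH, and 6.30, 6.25 and 6.08 with PTHrP at 6 h. Its PTHrP arrays lay above the untreated ones, by 0.27 (95% interval 0.0016 to 0.53), but the adjusted p was 0.157, and 0.0333 in a fit of only the arrays compared. Tnf differed from untreated cells by -0.02 and -0.06 at 6 h and by -0.04 and -0.00773 at 24 h, with PTH and PTHrP respectively. Tnfsf13b, the B cell survival factor BAFF, read 4.78 to 5.56.

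In all, 17 of the 25 tested members were called in none of the 6 comparisons, which is 68% of them, beside 61.2% of all tested genes. These were Tnfsf13os, the 7 ligands, among them Tnfsf4 (OX40 ligand), at 5.76 to 6.22, and Tnfsf8 (CD30 ligand), at 5.74 to 6.41, and the receptor genes Tnfrsf1b, Tnfrsf4 (OX40), Tnfrsf8, Tnfrsf11a, Tnfrsf12a, Tnfrsf13c (the BAFF receptor), Tnfrsf14 (HVEM), Tnfrsf17 (BCMA) and Tnfrsf18 (GITR). Their log2 differences ran from -0.24 to 0.16 with PTH at 1 h, from -0.10 to 0.23 at 6 h and from -0.21 to 0.22 at 24 h. With PTHrP they ran from -0.24 to 0.24, from -0.06 to 0.29 and from -0.24 to 0.15. The highest upper end of their 95% intervals with PTHrP at 6 h was 0.58. A miss of the threshold does not show that these genes stayed unchanged.

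Of the 26 members, 12 had more than 1 probe set, which gave a second reading of several genes. For Tnfrsf21 the other probe set differed by 1.47 and 0.60 at 6 h and by 0.82 and 0.44 at 24 h, with PTH and PTHrP. For Tnfrsf19 the other 2 probe sets gave -1.24 and -1.28 with PTH and -0.99 and -0.86 with PTHrP at 24 h. All probe sets of these genes moved in the same direction. A dimmer probe set of Tnfrsf9 gave larger differences, 3.50 and 2.88 at 6 h and 2.05 and 0.72 at 24 h. The third, which never exceeded 4.88, stayed near 0, with 0.07 and 0.06 at 6 h. The probe sets of Tnfrsf22 disagreed, with 0.06 and 0.26 for one and -0.17 and -0.23 for the other at 6 h. With all probe sets of a gene averaged, Tnfrsf22 was no longer called with PTH (0.06, limma adjusted p = 0.659) or PTHrP (0.13, adjusted p = 0.224). The same averaging ended the 24 h PTHrP call of Tnfrsf9 (0.33, adjusted p = 0.0671). It also brought Tnfrsf1b past the threshold with PTH at 6 h (0.23, adjusted p = 0.0462), where its second probe set gave 0.35 and the one used 0.12.

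**Figure D3:**
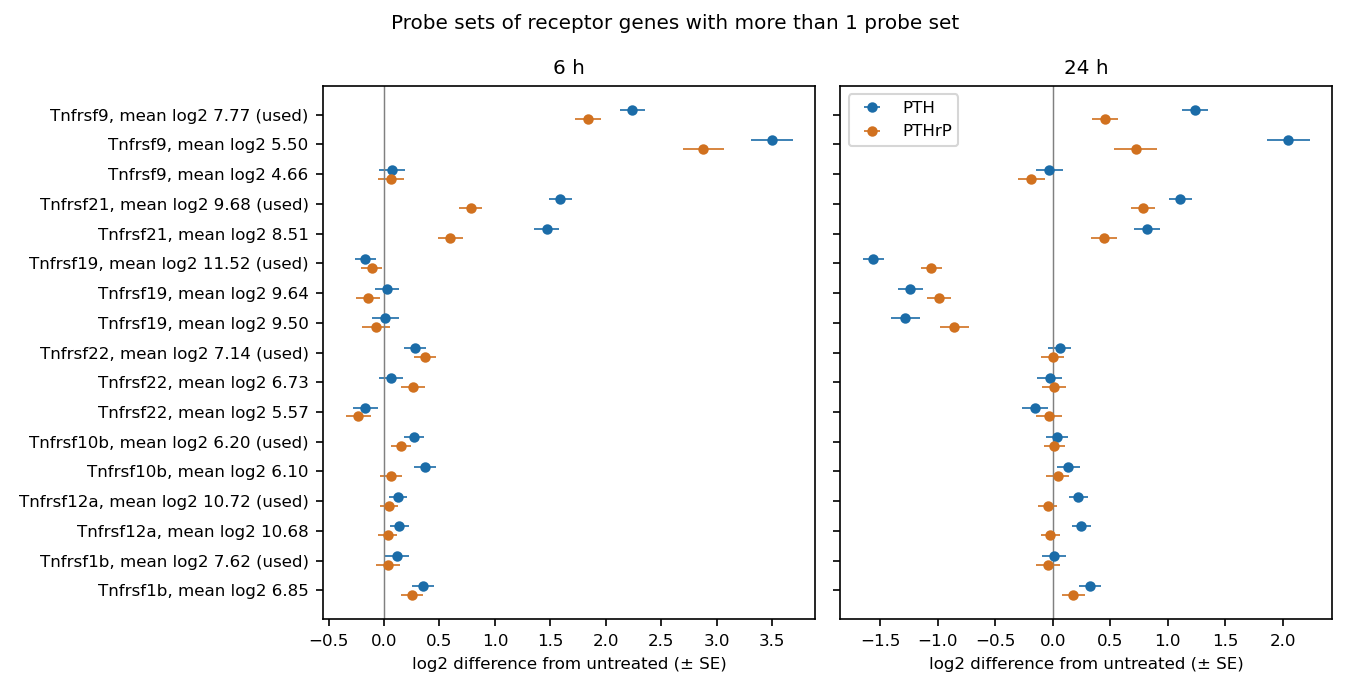
Log2 difference from untreated cells (x axis, with standard error) at 6 and 24 h for every probe set of 7 receptor genes (y axis, with the mean log2 intensity of each), PTH in blue and PTHrP in orange. The probe sets of Tnfrsf21 and Tnfrsf19 lie on 1 side of 0 where the genes were called, those of Tnfrsf22 lie on both sides at 6 h, and the dimmest of Tnfrsf9 stays near 0.

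As reference points, RANKL and osteoprotegerin changed more at 6 h than any of these genes did on the probe set used for it, though the dimmer Tnfrsf9 probe set moved more with PTH than Tnfrsf11b did. Tnfsf11 differed by 5.35 with PTH and 4.22 with PTHrP, and Tnfrsf11b by -3.10 and -2.97. At 24 h the fall of Tnfrsf19 with PTH (-1.56) was close in size to that of Tnfrsf11b (-1.65).

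Other genes of the pathway were read from 6 lists and are described by counts, with no test of a list. Over all tested genes at 6 h, 11.4% were higher and 17.9% lower with PTH, and 8.7% higher and 12.2% lower with PTHrP. At 24 h these shares were 5.69% and 5.96% with PTH, and 3.09% and 3.02% with PTHrP. At 1 h they were 1.44% and 0.299% with PTH, and 1.57% and 0.248% with PTHrP. The list of family genes under other names held 11 tested genes, counting Edaradd, an adaptor of the ectodysplasin receptor that is itself neither ligand nor receptor. Of these 2 were lower with PTH at 6 h and 1 with PTHrP, and 2 were higher with each at 24 h. Eda2r, a receptor for ectodysplasin, was called in both directions, with -0.76 and -0.82 at 6 h and 1.07 and 0.71 at 24 h, for PTH and PTHrP. Eda, which encodes ectodysplasin, was lower with PTH at 6 h (-0.45), and Ltbr, the lymphotoxin beta receptor, was higher at 24 h (0.34 and 0.30).

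Among 19 tested adaptors and kinases, 3 rose and 3 fell with PTH at 6 h, and 3 rose and 2 fell with PTHrP. The list's medians there were -0.07 and -0.02. Ripk3, the kinase that starts necroptosis, rose by 1.17 ± 0.08 and 0.92 ± 0.08 (limma adjusted p = 7.66e-12 and 1.39e-09), and Traf4 fell by 0.73 and 0.60. At 1 h the kinase gene Map3k14 (NIK), which drives the non-canonical NF-kappa B pathway, fell by 0.40 after PTH and 0.33 after PTHrP, the only call on this list at that time. At 24 h 1 gene, Ikbkg, was called with PTH, at 0.38, and 0 with PTHrP.

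Of 16 tested inhibitors of receptor signalling, 7 rose and 0 fell with PTH at 6 h, and 5 rose and 0 fell with PTHrP. Medians were 0.19 and 0.21. They included Tnfaip3 (A20), an enzyme that edits ubiquitin and restrains NF-kappa B, at 0.90 and 0.76, and with PTH Nfkbib, at 0.65. At 1 h Nfkbia, which encodes the main inhibitor of NF-kappa B, had been lower, by -0.35 and -0.42, while Nfkbie, which encodes another inhibitor of this family, was higher with PTHrP (0.56, limma adjusted p = 0.00562) and stood at 0.40 with PTH (adjusted p = 0.0868). Of 9 tested genes of the death programme, 2 rose and 1 fell at 6 h with each peptide. Casp6, an executioner caspase, rose by 1.47 and 1.13 and Cycs, cytochrome c, by 0.40 and 0.23, while Bid, which links death receptors to mitochondria, fell by 0.90 and 0.63. Bid was higher with PTH at 24 h, by 0.33 (limma adjusted p = 0.0347).

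Of 8 tested genes that process ligands and receptors, 2 rose and 3 fell with PTH at 6 h, and 1 rose and 1 fell with PTHrP. With PTH at 6 h these included Timp3, at 0.44, Sppl2a, at -0.50, and Sppl2b, at -0.39. At 24 h 1 gene was higher with PTH, and 1 was higher and 1 lower with PTHrP. Adam17, the sheddase that releases TNF and TNF receptors, was the gene that rose, by 0.39 and 0.49. Timp3 was the gene that fell with PTHrP (-0.48, limma adjusted p = 0.0279). Of 14 tested genes that TNF can induce, 9 rose and 0 fell with PTH at 6 h, and 6 rose and 0 fell with PTHrP, with medians of 0.40 and 0.28. Tnfaip6, a hyaluronan-binding protein gene, rose by 1.99 and 1.17, Ier3 by 1.75 and 1.28, and Sod2, mitochondrial superoxide dismutase, by 1.18 and 0.54. Ier3 was already higher at 1 h, by 1.66 and 1.47. At 24 h 4 rose and 2 fell with PTH, while 6 rose and 0 fell with PTHrP, among them Mmp3, stromelysin 1, at 0.86 and 1.44. Mmp3 also rose in untreated cells, by 0.84 from 1 to 24 h. These lists were picked with earlier results of these data known, so their counts are not independent evidence of a direction.

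**Figure D4:**
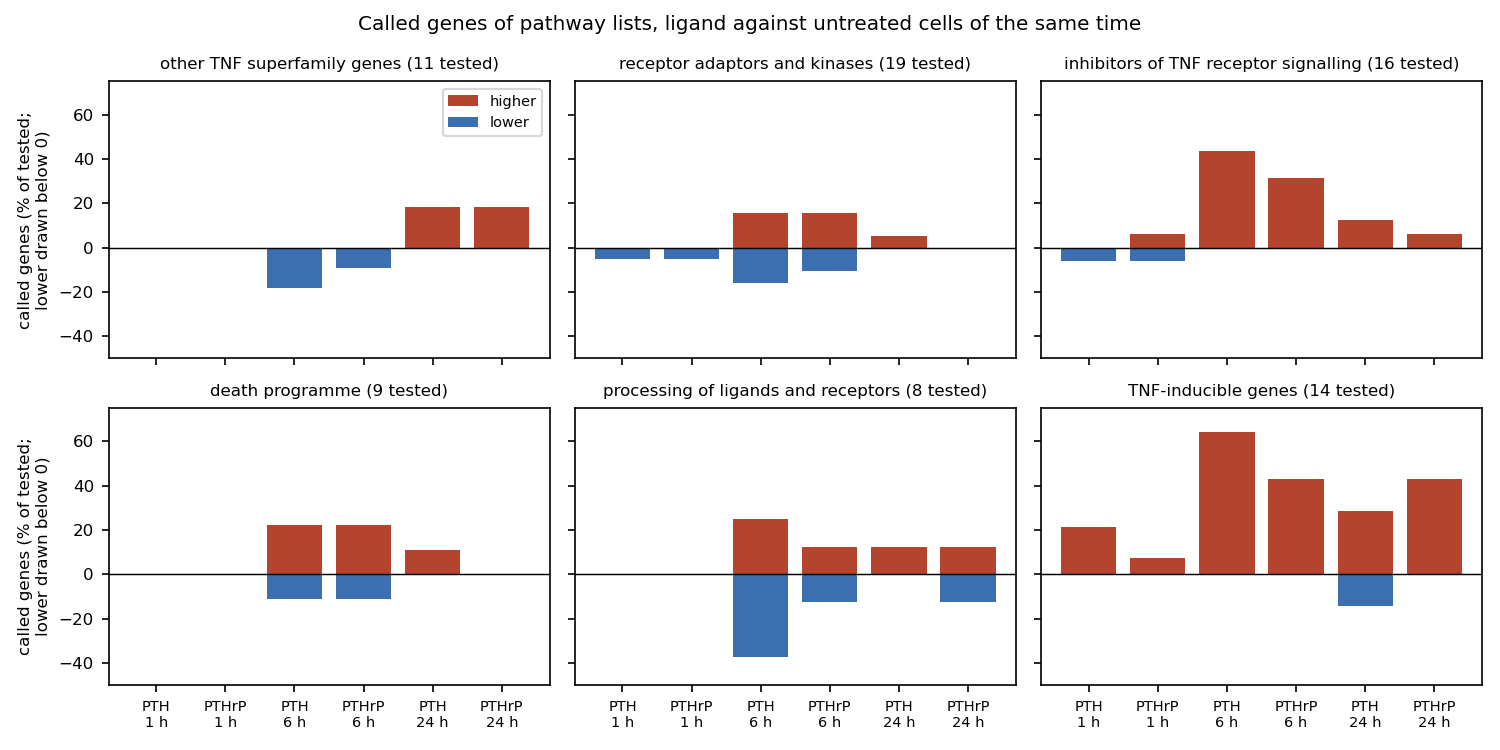
Share of tested genes called higher (red, above 0) or lower (blue, below 0) for 6 pathway lists (panels) in the 6 comparisons with untreated cells (x axis), in percent of the genes tested. The tallest bar is that of the TNF-inducible genes with PTH at 6 h, 9 of 14 genes, and the list of other family genes shows lower calls at 6 h and higher calls at 24 h.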

How the data were processed

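Total RNA of KUSA4b10 cells was read on 27 arrays in 9 groups taken from the labels. The deposited intensity values, 1 per probe set, were made by the authors with RMA, per the submitters' processing notes. They were normalized again in 2013 after publication in 2008, per the design text. The RMA software version is not given in the sources used here, nor is the background model. RMA pulls array distributions together, so a shift of most transcripts would be hidden, and folds of dim genes are understated. The values are on a linear scale (6.79 to 36257), so log2 was taken. Probe sets with 1 gene symbol (34945 of 45101) were kept, and the one with the highest mean stood for its gene. Genes at a log2 of 5 or more on 3 arrays were tested, 15711 in all.

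Differences were fitted with limma 3.58.1 (R 4.3.3; lmFit and eBayes, 9 group means, 18 residual and 5.54 prior degrees of freedom) in 15 comparisons. Tests were two-sided, with Benjamini-Hochberg adjustment over all tested genes within each comparison and a threshold of 0.05. Errors after ± are standard errors, with a median of 0.102 over genes for a difference of 2 groups, so the small number of arrays sets the precision. The fit was tested on simulated data. Motifs were searched in RefSeq promoter windows. Members were set by a rule on gene names, but the family and the gene lists were chosen with earlier results of these data known. Named were all members, with array values for those called against untreated cells, and from each pathway list at most the 3 called genes with the largest difference per comparison. Tnfsf11 and Tnfrsf11b served as a reference point. Promoter sequence was limited to at most 4 members called most often.

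Alternatives varied the filter, the normalization (quantile, cyclic loess), an added pseudocount of 32, the averaging of probe sets, moderation, array weights, the arrays fitted, a replicate block, and each array left out. The labels number replicates alike in every group but do not tie equal numbers to a culture or date. Deviations from the group means correlated over 0.1 for all 3 equal numbers in 2 of 24 pairs of groups, among them PTHrP with untreated cells at 1 h (0.19, 0.27 and 0.45).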

Additional observations from a re-analysis of the deposited data

Results flagged for a closer look

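The effect of a peptide changed between times, by a test of the difference itself in limma, for the following genes. None of the values below was given an explanation, and each change of effect uses 4 groups of 3 arrays.

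The effect of PTH rose from 1 to 6 h for Tnfrsf9 by 2.35, Tnfrsf21 by 1.40, Tnfrsf23 by 1.02, Tnfrsf1a by 0.71 and Tnfrsf12a by 0.34, which was 5 of 25 members where 18.5% of all genes changed. For Tnfrsf12a (adjusted p = 0.0335) the untreated level was lower at 6 h, and the call was lost without any 1 of 7 arrays, with adjusted p-values of 0.0657 to 0.11. From 6 to 24 h the effect of PTH changed for 5 members, where 20.4% of all genes did. It moved by -1.39 for Tnfrsf19, -1.001 for Tnfrsf9, -0.98 for Tnfrsf23 and -0.48 for Tnfrsf21, and by 0.50 for Tnfrsf25. The change for Tnfrsf21 was lost without PTH 6 h replicate 2 (adjusted p = 0.0608), and that for Tnfrsf25 without untreated 6 h replicate 3 (adjusted p = 0.0503) or untreated 24 h replicate 1 (adjusted p = 0.051).

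The effect of PTHrP rose from 1 to 6 h for Tnfrsf9 by 1.95, Tnfrsf23 by 0.87, Tnfrsf21 by 0.56, Tnfrsf22 by 0.53 and Tnfrsf1a by 0.47, which was 5 members where 12.2% of all genes changed. With all probe sets averaged the change for Tnfrsf22 was 0.19 (adjusted p = 0.257). From 6 to 24 h it moved by -1.38 for Tnfrsf9, -0.94 for Tnfrsf19, -0.72 for Tnfrsf23 and -0.50 for the ligand gene Tnfsf10 (adjusted p = 0.0237), which was 4 members where 12.1% of all genes changed. Tnfsf10 read 6.21, 6.13 and 6.04 with PTHrP at 6 h and 5.99, 5.93 and 5.93 at 24 h, against untreated values of 5.68, 6.02 and 5.92 and then 6.20, 6.37 and 6.00. Its change was lost without untreated 6 h replicate 1, untreated 24 h replicate 2, PTHrP 6 h replicate 1 or PTHrP 24 h replicate 2, with adjusted p-values of 0.0509 to 0.0899, and with all probe sets averaged (-0.28, adjusted p = 0.128).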

How the results depend on the processing

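Of 50 called pairs of a member and a comparison, 36 were called under every alternative run, 14 were lost under at least 1, and 0 reversed. No scaling moved the median of all genes by more than 0.0308 (log2). With array weights, which gave PTHrP 1 h replicate 3 a weight of 0.127, called members numbered 3 in place of 0 for PTHrP at 1 h, 5 in place of 3 for PTHrP against PTH at 6 h, 11 in place of 5 and 7 in place of 4 for the early (1 to 6 h) and late (6 to 24 h) change of the PTHrP effect, and 2 in place of 1 and 6 in place of 3 for untreated cells at 6 and 24 h. The weights also favoured single arrays in other groups. PTHrP 6 h replicate 3 had a weight of 7.21, against 0.566 and 0.462 for replicates 1 and 2. PTH 24 h replicate 3 had 3.67, against 0.253 and 0.563. The weighted means of these groups therefore rested mostly on 1 array. With array weights 11.2% of all genes were called for PTHrP at 1 h, in place of 1.81%. For the early change of the PTHrP effect the share was 39.6%, in place of 12.2%. Shares of all genes under these weights were not computed for the other comparisons, so the higher counts there are no result about the family. With only the arrays compared in the fit, PTHrP against PTH gave 1 call at 6 h and 1 at 24 h, where Tnfrsf19 was lost (adjusted p = 0.0583). Cyclic loess gave 5 calls for untreated cells at 24 h and ended the call of Tnfrsf10b with PTH at 6 h (adjusted p = 0.0611). With single arrays left out, the counts were 0 to 2 for PTHrP at 1 h, 4 to 7 for PTH at 6 h, 1 to 4 for PTHrP against PTH at 6 h, 5 to 9 for the change of the PTHrP effect from 1 to 6 h (9 without PTHrP 1 h replicate 3, with 26% of all genes called), and 2 to 4 for untreated cells at 24 h. PTH at 6 h gave 4 calls without untreated 6 h replicate 1.

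A replicate block left 0 calls for PTHrP at 1 h, where same-numbered arrays deviated together, and with all arrays it left every count of called members as it was. In the fit of only the arrays compared, the replicate block gave 2 calls for untreated cells at 6 h in place of 1, and 8 for PTHrP at 6 h in place of 6. The same fit ended the calls of Tnfrsf22 with PTH at 6 h (adjusted p = 0.0512), Tnfrsf25 for PTHrP against PTH at 6 h (0.0925) and the change of the PTH effect on Tnfrsf12a from 1 to 6 h (0.0879). With 3 arrays a group and no detection calls, a missed threshold does not show that a dim member stayed unchanged.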
